A study of Mus musculus with 12 samples.

Results

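The 9 genes described here encode 5 transcription factors that build and maintain macrophages (Spi1, Cebpa, Cebpb, Maf and Klf4) and 4 receptor chains for the colony-stimulating factors (Csf1r, Csf2ra, Csf2rb and Csf3r). They were taken by gene symbol from a deposited table of 12441 mouse genes, and all 9 were found. RNA had been sequenced from bone marrow-derived macrophages in 4 groups of 3 libraries: macrophages homozygous for D316Y in COQ6, a monooxygenase of coenzyme Q synthesis, with LPS; wild-type (WT) macrophages with LPS; and unstimulated D316Y and WT macrophages. LPS, the bacterial lipopolysaccharide that activates macrophages through Toll-like receptor 4, was given at 100 ng/mL for 24 h. All groups had 6 days of culture in medium with 10% L929-conditioned medium, which supplies CSF1, the ligand of Csf1r, so every library comes from cells already exposed to that ligand. Whether the libraries of a group stem from different animals or dishes is not given in the labels, and the p-values below therefore measure the spread between these libraries and nothing wider.

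PU.1, the product of Spi1, and the C/EBP factors open and occupy the enhancers that make a progenitor myeloid, and PU.1 and C/EBP together drive the genes of the colony-stimulating receptors. CSF1 signals through the tyrosine kinase Csf1r and keeps macrophages alive. GM-CSF signals through an alpha chain, Csf2ra, and a beta chain, Csf2rb, that recruits the kinase JAK2, while G-CSF signals through Csf3r, best known from neutrophils.

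The libraries held between 32.8 and 47.2 M reads in the table. The macrophage marker list (8 of 8 genes measured) summed to between 53745 and 62409 CPM (read counts scaled to library size) in D316Y with LPS, 63171 and 69833 in WT with LPS, 31533 and 33722 in unstimulated D316Y and 33813 and 36631 in unstimulated WT. The sum was lower in every D316Y library than in every WT library of the same condition, without LPS by a narrow gap. The genotypes' libraries likewise did not overlap in 8.13% of all genes without LPS and 12.5% with LPS. Most of each sum came from Lyz2. Its mean log2 CPM was 15.60 in D316Y with LPS, 15.78 in WT with LPS, 14.75 in unstimulated D316Y and 14.81 in unstimulated WT. Coq6 itself drew between 376 and 683 reads in the 12 libraries, and RNA amounts do not check a point mutation. Among the unstimulated libraries, replicate 1 of each genotype stood apart, with 0.949% of reads from mitochondrial genes in D316Y and 0.449% in WT, against 1.97% to 2.97% in the other 4 unstimulated libraries. The share also moved with LPS, at 1.02% to 1.10% in D316Y with LPS and 0.658% to 1.08% in WT with LPS, and its part in the LPS results was not tested. The lowest of these, 0.658%, was that of WT replicate 1. In these bulk samples, fewer cells of a type and less RNA per cell cannot be told apart.

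RefSeq promoter windows were at hand for 5 of the 9 genes, and the 4 of genes that changed with LPS are shown, because they are the windows next to the genes on which the results turn. They are RefSeq sequences on GRCm38.p6, written 5′ to 3′ on the gene's strand and ending before the first base of the annotated transcript: Cebpa at chr7:35119043-35119292 (+), Cebpb at chr2:167688665-167688914 (+), Klf4 at chr4:55532476-55532725 (-) and Csf3r at chr4:126024409-126024549 (+). The Csf3r window is shorter, at 141 bases against 250, because it stops at the gene start of the GENCODE annotation. Capitals mark matches to the CRE half-site TGACG, the TATA box TATAAA or the NF-kB pattern GGGNNNNNCC, each searched on both strands.
Cebpa: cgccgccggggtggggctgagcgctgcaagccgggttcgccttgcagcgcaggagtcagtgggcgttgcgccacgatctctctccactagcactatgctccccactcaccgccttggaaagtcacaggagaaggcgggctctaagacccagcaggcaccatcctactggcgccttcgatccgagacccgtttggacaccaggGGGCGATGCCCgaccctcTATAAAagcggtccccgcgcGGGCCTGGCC
Cebpb: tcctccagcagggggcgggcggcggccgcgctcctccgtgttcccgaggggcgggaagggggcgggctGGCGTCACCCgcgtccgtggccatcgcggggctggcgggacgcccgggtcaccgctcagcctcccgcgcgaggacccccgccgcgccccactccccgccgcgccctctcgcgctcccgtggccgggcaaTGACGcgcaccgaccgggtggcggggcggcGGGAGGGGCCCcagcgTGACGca
Klf4: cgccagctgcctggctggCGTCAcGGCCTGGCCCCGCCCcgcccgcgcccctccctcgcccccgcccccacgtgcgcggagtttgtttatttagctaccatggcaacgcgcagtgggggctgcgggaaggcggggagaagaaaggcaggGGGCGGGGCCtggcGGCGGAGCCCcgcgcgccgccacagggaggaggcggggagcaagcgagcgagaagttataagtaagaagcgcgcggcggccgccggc
Csf3r: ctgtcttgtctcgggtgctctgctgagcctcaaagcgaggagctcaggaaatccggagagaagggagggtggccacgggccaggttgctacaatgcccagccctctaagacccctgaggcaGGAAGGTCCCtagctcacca
The Cebpb window held 3 matches to the CRE half-site, at -180, -53 and -7 from the RefSeq start site, the Klf4 window 1 at -232, and the Cebpa and Csf3r windows none. A CRE half-site was present in 17.8% of 32851 RefSeq windows of 250 bases, so its presence does not set these genes apart. A TATA box stood at -30 in Cebpa alone among these 4 and in 12.4% of all windows. The NF-kB pattern occurred in all 4, with 3 matches in Cebpa, 3 in Cebpb, 4 in Klf4 and 1 in Csf3r, and in 45.8% of all windows of 250 bases and 25.9% of windows of the Csf3r length. Some matches share bases: the Cebpb CRE half-site at -180 lies inside an NF-kB match at -182, and the NF-kB pairs at -48 and -47 in Cebpa, -23 and -22 in Cebpb, and -226 and -221 in Klf4 overlap. No letters of the PU.1 core GAGGAA or the C/EBP core TTGCNNAA occurred in these 4 windows; 23.3% and 9.56% of all windows of 250 bases hold them. The bases of the Cebpb window were 81.6% G or C, those of Klf4 74%, of Cebpa 66.4% and of Csf3r 61.0%.

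Levels differed widely among the 9 genes. Per length, on the scale of log2 CPM per kilobase of exon, Csf1r stood at the top in every group, at 8.16 ± 0.16 in D316Y with LPS, 8.39 ± 0.51 in WT with LPS, 8.21 ± 0.47 in unstimulated D316Y and 8.60 ± 0.55 in unstimulated WT (SD, n = 3). It exceeded 98.2%, 98.5%, 98.7% and 99.1% of the genes in the table in those groups. Spi1 was the highest of the transcription factors in every group, at 6.15 ± 0.07 in D316Y with LPS, 6.45 ± 0.14 in WT with LPS, 5.78 ± 0.25 in unstimulated D316Y and 6.08 ± 0.16 in unstimulated WT. In unstimulated cells of both genotypes Csf2ra came next and overlapped Spi1, then Csf2rb, Csf3r and Maf, each overlapping its neighbour, then Cebpa, and last Klf4 and Cebpb, which overlapped. With LPS, Csf2ra, Csf2rb and Csf3r overlapped their neighbours and lay below Spi1 with no overlap between Spi1 and Csf2ra. Maf followed, then Cebpb, and last Klf4 and Cebpa, which overlapped. Cebpb was thus the lowest of the 9 in unstimulated cells of both genotypes and stood above Klf4 and Cebpa in LPS-treated cells of both genotypes.

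**Figure D1:**
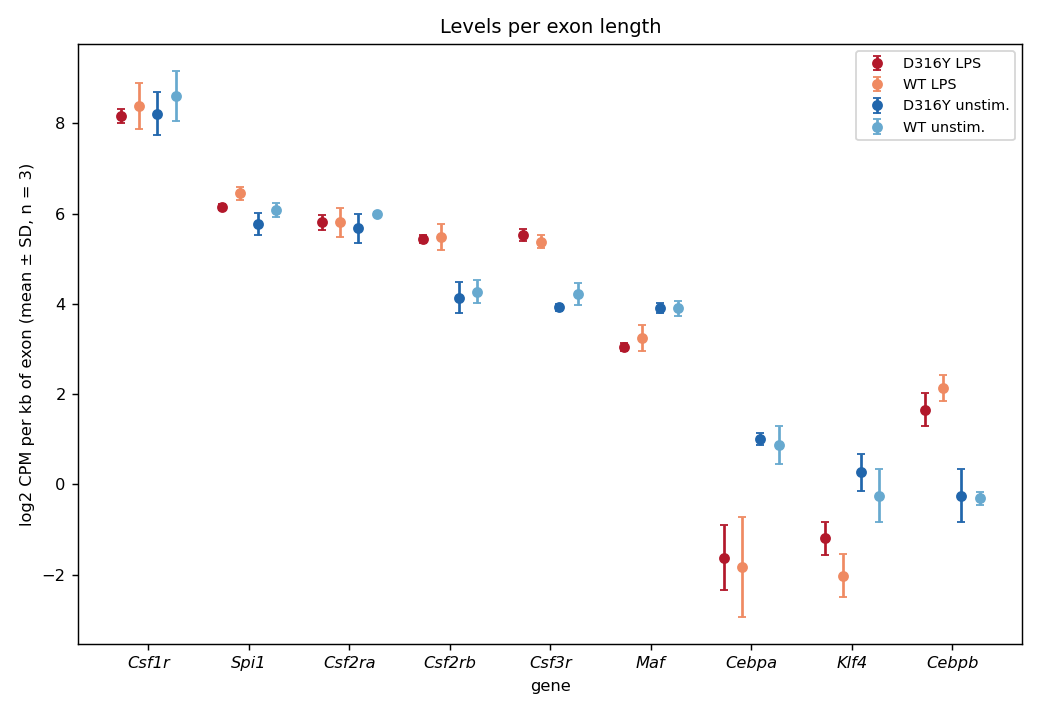
Levels of the 9 genes as log2 CPM per kilobase of exon, with the mean and SD of 3 libraries for D316Y with LPS, WT with LPS, unstimulated D316Y and unstimulated WT, ordered by their level in unstimulated cells. Csf1r lies above 8 in all groups, while Cebpa and Klf4 lie lower and Cebpb higher with LPS than without.

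The first comparison set LPS-treated against unstimulated macrophages. In D316Y, 3 members rose and 3 fell of 9 tested (limma, adjusted p under 0.05), against 38.4% of the 11795 genes tested, 19.4% higher and 19% lower. In WT, 3 rose and 3 fell, against 37.1% of 11663 genes, 18.1% higher and 19% lower. The same 6 members moved in the same direction in both genotypes: Cebpb, Csf2rb and Csf3r rose, and Cebpa, Maf and Klf4 fell. The median size of the log2 difference, taken without sign, was 1.30 over the members and 0.42 over all genes in D316Y, and 1.16 and 0.41 in WT. In 7 of 9 members the LPS and the unstimulated libraries did not overlap, in D316Y as in WT, against 52.8% of all genes in D316Y and 46.8% in WT. When each library was scaled to its reads in the table instead of the authors' effective library size, an alternative added after the data were seen, the median of all genes shifted to -0.55 in D316Y and -0.53 in WT. The genes called became 8.78% higher and 49.7% lower in D316Y, and 7.74% higher and 50.5% lower in WT. These 6 calls and their directions held under that scaling, and also without both unstimulated replicate 1 libraries.

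Cebpb, a basic leucine zipper factor of inflammatory gene expression, had the largest rise of the 9 in both genotypes. It drew 147, 240 and 134 reads in D316Y with LPS, 268, 314 and 229 in WT with LPS, 44, 68 and 93 in unstimulated D316Y and 60, 62 and 51 in unstimulated WT. Every LPS library lay above every unstimulated one of its genotype. The log2 CPM averaged 2.24 ± 0.37 in D316Y with LPS and 0.34 ± 0.58 in unstimulated D316Y, a 3.75-fold rise (log2 difference 1.91, SE 0.30, limma adjusted p 0.000186). They averaged 2.72 ± 0.29 in WT with LPS and 0.28 ± 0.15 in unstimulated WT, a 5.44-fold rise (2.44, SE 0.30, adjusted p 2.67e-05). Scaled to the reads in the table, the log2 difference was 1.39 in D316Y and 1.93 in WT. Cebpb (chr2:167688915-167690418, +, GRCm38) is a gene of 1 exon, and 67.2% of its transcript is G or C, the highest share among the 9.

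Cebpa, the related factor that commits progenitors to the granulocyte and monocyte lineages, went the other way. Its reads were 46, 18 and 32 in D316Y with LPS, 36, 56 and 13 in WT with LPS, 249, 311 and 269 in unstimulated D316Y and 370, 177 and 189 in unstimulated WT. The unstimulated libraries lay far above the LPS libraries with no overlap, and the LPS libraries of a genotype spread widely at these low counts. Cebpa fell 6.20-fold in D316Y (-2.63, SE 0.48, adjusted p 0.000641) and 6.52-fold in WT (-2.70, SE 0.48, adjusted p 0.000565). Cebpa lies at chr7:35119293-35121928 (+), and its transcripts have at most 2 exons in the annotation.

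Per length, the log2 ratio of Cebpb over Cebpa put the opposite movements into a single value. It was 2.47, 4.51 and 2.86 in the D316Y libraries with LPS, 3.69, 3.29 and 4.90 in the WT libraries with LPS, -1.68, -1.38 and -0.72 in unstimulated D316Y and -1.80, -0.70 and -1.07 in unstimulated WT. The ratio was above 0 in all 6 LPS libraries and below 0 in all 6 unstimulated libraries. The mean difference in the log2 ratio between LPS and unstimulated libraries was 4.54 in D316Y and 5.15 in WT, given as a description. A ratio within a library does not depend on how the libraries were scaled.

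Maf, a large Maf-family factor that restrains macrophage self-renewal, fell in both genotypes. Its log2 CPM were 6.18, 6.01 and 6.08 in D316Y with LPS, 6.38, 6.53 and 5.98 in WT with LPS, 6.84, 6.96 and 7.05 in unstimulated D316Y and 7.12, 6.91 and 6.80 in unstimulated WT. All LPS libraries lay below all unstimulated libraries. The fall was 1.82-fold in D316Y (-0.86, SE 0.15, adjusted p 0.000512) and 1.56-fold in WT (-0.65, SE 0.15, adjusted p 0.00440). Under scaling to the reads in the table it was -1.38 and -1.16 on the log2 scale in D316Y and WT.

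Klf4, a zinc finger factor of monocyte differentiation and of the alternative activation of macrophages, also fell. It drew 62, 50 and 33 reads in D316Y with LPS, 46, 21 and 28 in WT with LPS, 147, 273 and 173 in unstimulated D316Y and 89, 155 and 132 in unstimulated WT. The LPS libraries of each genotype lay below its unstimulated libraries. Klf4 fell 2.76-fold in D316Y (-1.47, SE 0.36, adjusted p 0.00528) and 3.42-fold in WT (-1.77, SE 0.36, adjusted p 0.00151). Its mean of 0.41 ± 0.37 log2 CPM in D316Y with LPS and -0.41 ± 0.48 in WT with LPS is close to the filter of 0 log2 CPM used for testing.

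Spi1 did not pass the test for LPS. Its log2 CPM were 7.52, 7.65 and 7.56 in D316Y with LPS, 7.74, 8.02 and 7.87 in WT with LPS, 7.00, 7.14 and 7.48 in unstimulated D316Y and 7.69, 7.37 and 7.48 in unstimulated WT. In each genotype the LPS libraries lay above the unstimulated ones, in both by a narrow gap. The log2 difference was 0.37 in D316Y (SE 0.15, adjusted p 0.0682) and 0.37 in WT (SE 0.15, adjusted p 0.0739). It passed without unstimulated D316Y replicate 3 (0.51, adjusted p 0.0208) and without unstimulated WT replicate 1 (0.45, adjusted p 0.0369), and its sign turned to -0.14 in both genotypes when libraries were scaled to the reads in the table. No direction is therefore given for Spi1.

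**Figure D2:**
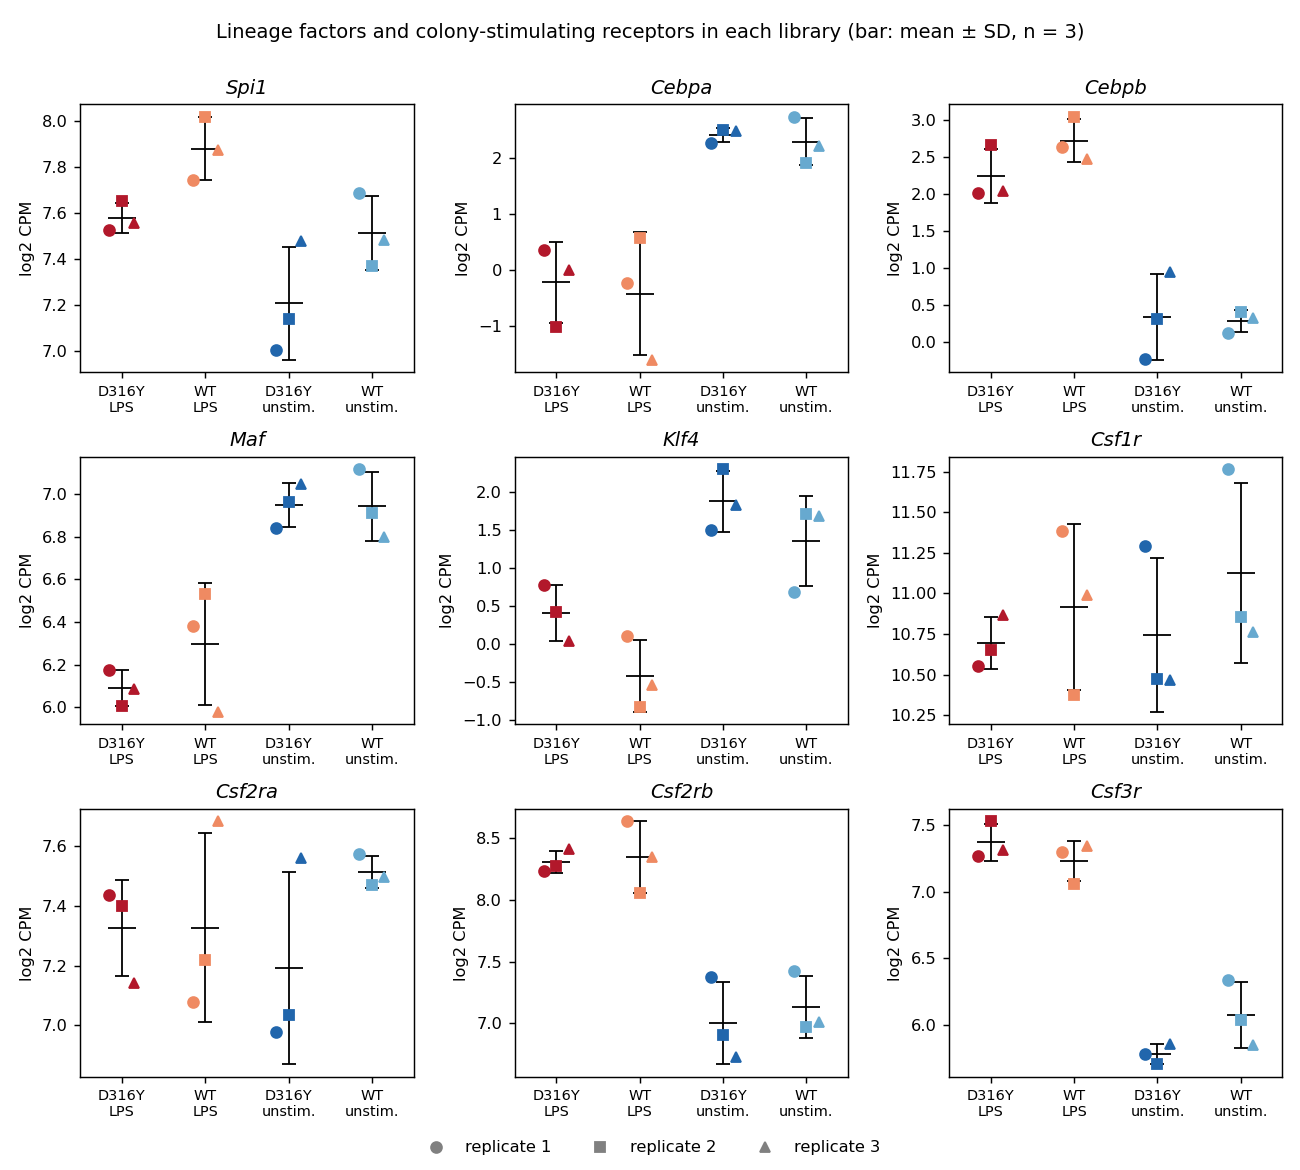
Log2 CPM of each of the 9 genes in the 12 libraries (points, shaped by replicate number) with the mean and SD of 3 libraries, in the order D316Y with LPS, WT with LPS, unstimulated D316Y and unstimulated WT; the vertical axes differ between panels. Cebpb, Csf2rb and Csf3r lie higher and Cebpa, Maf and Klf4 lower in the LPS libraries, while Csf1r and Csf2ra overlap between conditions.

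Among the receptors, the G-CSF receptor and the shared beta chain rose, and the CSF1 receptor and the GM-CSF receptor alpha chain did not pass. Csf3r had 7.27, 7.53 and 7.32 log2 CPM in D316Y with LPS, 7.30, 7.06 and 7.34 in WT with LPS, 5.78, 5.70 and 5.86 in unstimulated D316Y and 6.34, 6.04 and 5.85 in unstimulated WT. Every LPS library was above every unstimulated library. Csf3r rose 3.01-fold in D316Y (1.59, SE 0.15, adjusted p 1.83e-06) and 2.23-fold in WT (1.16, SE 0.15, adjusted p 3.67e-05). Scaled to the reads in the table, its log2 difference was 1.08 in D316Y and 0.65 in WT, past the threshold in both.

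Csf2rb, the beta chain shared by the receptors for GM-CSF, IL-3 and IL-5, also rose. Its log2 CPM were 8.23, 8.28 and 8.41 in D316Y with LPS, 8.64, 8.06 and 8.35 in WT with LPS, 7.38, 6.91 and 6.73 in unstimulated D316Y and 7.42, 6.97 and 7.01 in unstimulated WT. The unstimulated replicate 1 library was the highest unstimulated library in both genotypes, and it still lay below every LPS library. The rise was 2.47-fold in D316Y (1.30, SE 0.20, adjusted p 0.000142) and 2.32-fold in WT (1.21, SE 0.20, adjusted p 0.000289). The values were 0.79 in D316Y and 0.71 in WT when scaled to the reads in the table, still past the threshold.

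The reads of Csf2rb and of its neighbour Csf2rb2, the mouse beta chain specific to IL-3, may have been split between them, so the level of each is uncertain. Their longest transcripts, of 4900 and 4740 bases, were identical at 91.5% of 4668 aligned bases, and 18.4% of the windows of 50 bases in Csf2rb were found unchanged in Csf2rb2. Csf2rb2 had 6.93, 7.01 and 7.05 log2 CPM in D316Y with LPS, 7.35, 6.57 and 7.09 in WT with LPS, 6.64, 6.07 and 5.77 in unstimulated D316Y and 6.47, 6.07 and 5.93 in unstimulated WT. It rose less, by 0.83 in D316Y (SE 0.23, adjusted p 0.0116) and 0.84 in WT (SE 0.23, adjusted p 0.0115). With both genes summed into a single row, the rise was 1.15 in D316Y (adjusted p 0.000668) and 1.10 in WT (adjusted p 0.00104). The Csf2rb2 call was lost when libraries were scaled to the reads in the table (0.32 in D316Y and 0.33 in WT). It was also lost without unstimulated D316Y replicate 3 (0.64, adjusted p 0.0552), without unstimulated WT replicate 3 (0.73, adjusted p 0.0504) and without WT replicate 1 with LPS (0.67, adjusted p 0.0514).

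Csf2ra, the ligand-binding alpha chain of the GM-CSF receptor, had 7.44, 7.40 and 7.14 log2 CPM in D316Y with LPS, 7.08, 7.22 and 7.68 in WT with LPS, 6.98, 7.04 and 7.56 in unstimulated D316Y and 7.57, 7.47 and 7.50 in unstimulated WT. The libraries of the conditions overlapped in both genotypes. Its log2 difference was 0.13 in D316Y (95% interval -0.27 to 0.54, adjusted p 0.606) and -0.19 in WT (-0.59 to 0.22, adjusted p 0.470). Scaled to the reads in the table these became -0.38 in D316Y and -0.70 in WT, and the WT value then passed (adjusted p 0.00680). Per length, Csf2rb lay below Csf2ra by 0.36 ± 0.25 on the log2 scale in D316Y with LPS, by 0.32 ± 0.47 in WT with LPS, by 1.53 ± 0.62 in unstimulated D316Y and by 1.72 ± 0.20 in unstimulated WT. The log2 ratio of beta to alpha chain was higher in all LPS libraries than in all unstimulated libraries.

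Csf1r, the tyrosine kinase receptor for CSF1 and IL-34, had 10.55, 10.65 and 10.87 log2 CPM in D316Y with LPS, 11.39, 10.37 and 10.99 in WT with LPS, 11.29, 10.47 and 10.47 in unstimulated D316Y and 11.77, 10.85 and 10.76 in unstimulated WT. The conditions overlapped in both genotypes, and the unstimulated replicate 1 library was well above the other unstimulated libraries of its genotype. Its log2 difference was -0.05 in D316Y (95% interval -0.73 to 0.63, adjusted p 0.917) and -0.21 in WT (-0.90 to 0.47, adjusted p 0.642). Without both unstimulated replicate 1 libraries the values were 0.22 and 0.11, with the opposite sign, and neither passed. Scaled to the reads in the table, the log2 differences were -0.57 in D316Y and -0.72 in WT, and neither passed. Csf1r lies at chr18:61100598-61132149 (+). Per length, the log2 ratio of Csf1r over Csf3r was 2.64 ± 0.22 in D316Y with LPS, 3.01 ± 0.39 in WT with LPS, 4.29 ± 0.48 in unstimulated D316Y and 4.38 ± 0.33 in unstimulated WT.

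**Figure D3:**
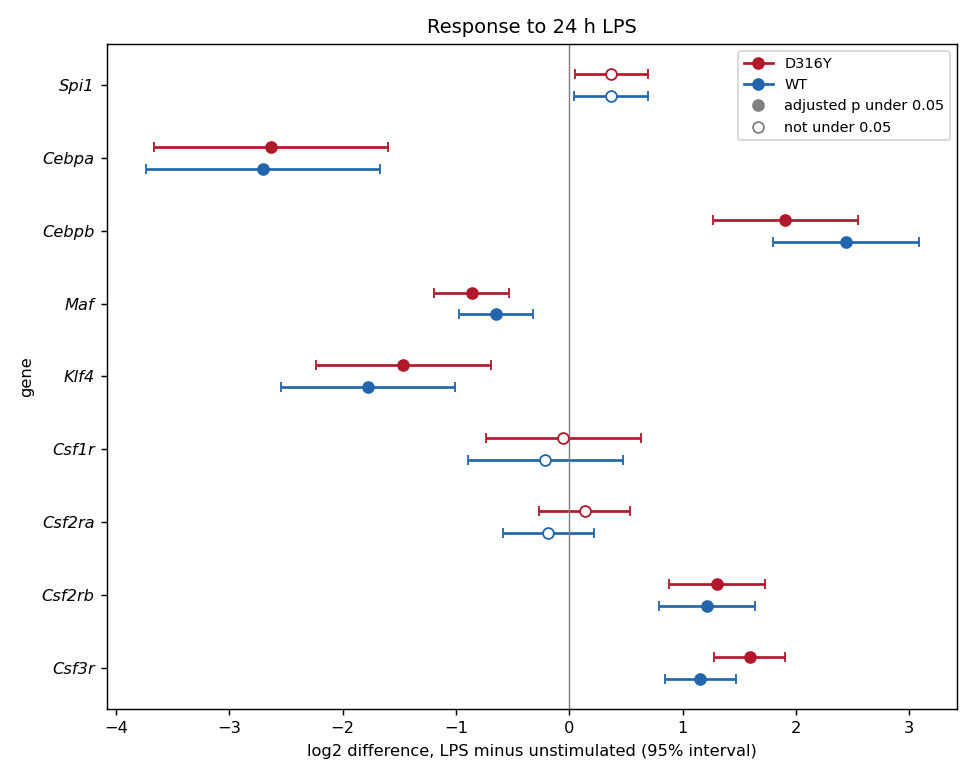
Log2 difference between LPS-treated and unstimulated macrophages (LPS minus unstimulated) for the 9 genes in D316Y and WT, with 95% intervals; filled points passed limma at adjusted p under 0.05. Cebpa, Maf and Klf4 lie left of 0 and Cebpb, Csf2rb and Csf3r right of 0 in both genotypes.

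Markers of other cell types moved with LPS as well, and their part in the changes of the 9 genes was not tested. The counts below stand beside 38.4% of all genes tested that passed in D316Y and 37.1% in WT. Beside the rise of Csf3r, the 6 measured of 12 neutrophil markers summed to between 50.3 and 60.2 CPM in D316Y with LPS, 41.7 and 63.7 in WT with LPS, 21.0 and 34.6 in unstimulated D316Y and 13.9 and 24.1 in unstimulated WT. In D316Y 3 of 6 tested rose and 1 fell, and in WT 2 of 5 rose and 1 fell. Camp and S100a8 rose and Ngp fell in both. With LPS the sum came mostly from S100a8, at a mean log2 CPM of 5.17 in D316Y and 4.96 in WT, against 3.65 and 2.47 without. Means of S100a9 in D316Y and WT were 1.33 and 1.27 with LPS and 1.60 and 0.49 without. Those of Ltf were -1.58 and -2.76 with LPS and 0.22 and -0.12 without. Beside the fall of Cebpa, the 3 measured of 7 progenitor markers summed to between 1.91 and 3.08 CPM in D316Y with LPS, 1.59 and 3.12 in WT with LPS, 4.82 and 5.97 in unstimulated D316Y and 6.55 and 7.75 in unstimulated WT; 1 of 2 tested fell in D316Y and 3 of 3 in WT. Cd34, which marks progenitors, had 0 reads in D316Y replicates 1 and 3 and WT replicate 2 with LPS. Of the macrophage markers, 5 of 8 rose and 1, Cd68, fell in both genotypes. Of the osteoclast markers, 4 of 6 measured, 1 rose and 2 fell in D316Y and 1 rose and 3 fell in WT. Their sums ran from 96.1 to 147 CPM with LPS and from 38.3 to 123 CPM without. With LPS they came mostly from Acp5, at a mean log2 CPM of 6.81 in D316Y and 6.73 in WT, against 3.02 and 2.88 without. Dcstamp had means of -0.52 and -1.11 with LPS and 5.71 and 4.90 without. Means of Ocstamp and Ctsk were also lower with LPS in both genotypes. Of the dendritic cell markers, 5 of 8 measured, 2 of 5 tested rose and 1 fell in D316Y and 1 of 3 rose and 1 fell in WT; Cd209a was at 0 reads in 5 of 6 LPS libraries. The sums were 22.0 to 23.8 CPM in D316Y with LPS, 15.5 to 19.1 in WT with LPS, 4.55 to 6.26 in unstimulated D316Y and 4.00 to 4.96 in unstimulated WT. With LPS they came mostly from Ccr7. Its mean log2 CPM was 4.26 in D316Y and 3.79 in WT with LPS, against 0.80 and -0.13 without. Of the stromal cell markers, 2 of 6 measured, 1 of 1 tested rose in each genotype and the sum stayed at or below 3.56 CPM, and no lymphocyte or erythroid marker was among the genes analysed.

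The second comparison set D316Y against WT macrophages, separately without and with LPS. Without LPS, 0 of 9 members passed (limma), against 0.00868% of the 11525 genes tested. An unadjusted p under 0.05 was reached by 0 members and by 2.92% of all genes. In 0 of 9 did the genotypes' libraries fail to overlap, against 8.13% of all genes. With LPS, 0 of 8 members tested passed, against 0.0442% of 11306 genes, 0.0177% higher and 0.0265% lower in D316Y. An unadjusted p under 0.05 was reached by 2 members, Spi1 and Klf4, and by 6.5% of all genes. Cebpa was not tested there because its mean was below 0 log2 CPM in both groups. Only Spi1 among the 8 had no overlap between the genotypes, against 12.5% of all genes. The authors' deposited table likewise listed 0 of the 9 members at an adjusted p under 0.05 in either comparison. Of all 12441 genes it listed only 7 without LPS and 10 with LPS, so the 0 does not set the members apart. An unadjusted p under 0.05 stood there for 1 member without LPS and 2 with LPS, and its share of all genes was not counted.

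Spi1 lay lower in all D316Y than in all WT libraries with LPS, without passing the test. The genotypes' libraries likewise did not overlap in 12.5% of all genes tested, so this does not set Spi1 apart. With LPS its log2 CPM lay between 7.52 and 7.65 in the D316Y libraries and between 7.74 and 8.02 in the WT libraries, so all 3 D316Y libraries were below all 3 WT libraries. The log2 difference was -0.30 (SE 0.12, 95% interval -0.56 to -0.04, unadjusted p 0.0275, limma adjusted p 0.693). Without LPS the difference was -0.31 (SE 0.19, interval -0.74 to 0.13, adjusted p 0.942), with the genotypes overlapping. Neither passed. Without both unstimulated replicate 1 libraries the difference without LPS was -0.12 (adjusted p 0.669). With LPS the macrophage marker sum, which came mostly from Lyz2, was likewise lower in every D316Y library, as given above. The dendritic cell marker sum was higher, at 22.0 to 23.8 CPM in D316Y with LPS and 15.5 to 19.1 in WT with LPS. It came mostly from Ccr7. Mean log2 CPM in D316Y and WT with LPS was 0.34 and -0.35 for Itgae, 0.84 and 0.96 for Xcr1, and -0.62 and -0.18 for Siglech. Cd209a had almost no reads. Between the genotypes with LPS, 0 of 8 macrophage markers and 0 of 3 dendritic cell markers tested passed (limma), with an unadjusted p under 0.05 for 0 and 1 of them. Of all genes tested there, 0.0442% passed and 6.5% had an unadjusted p under 0.05. The part of these markers in the Spi1 difference was not tested. In the authors' deposited table the Spi1 difference with LPS was -0.301, with an adjusted p of 0.301.

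Klf4 was higher in D316Y in both conditions by values that did not pass. With LPS the log2 difference was 0.83 (SE 0.36, 95% interval 0.04 to 1.61, unadjusted p 0.0403, adjusted p 0.734), from 62, 50 and 33 reads in D316Y and 46, 21 and 28 in WT; D316Y replicate 3 lay below WT replicate 1 in log2 CPM. Without LPS the difference was 0.52 (SE 0.34, interval -0.27 to 1.30, adjusted p 0.942), and the genotypes again overlapped. WT replicate 1, of the libraries that stood apart, was the lowest unstimulated library, at 89 reads. The difference was 0.18 without it and 0.37 without both unstimulated replicate 1 libraries. The authors' deposited table gave Klf4 differences of 0.940 with LPS (p 0.00947, adjusted p 0.268) and 0.402 without (p 0.0485, adjusted p 0.299). The same deposited table gave Cebpa, not tested here with LPS, a difference of 0.942 with LPS (p 0.0538, adjusted p 0.417). The log2 CPM values themselves averaged -0.23 ± 0.72 in D316Y with LPS and -0.43 ± 1.10 in WT with LPS, and the libraries overlapped. The deposited difference is thus larger than the gap between these means, and why was not tested.

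Cebpb was lower in D316Y with LPS by a value that did not pass (-0.48, SE 0.23, interval -0.98 to 0.03, adjusted p 0.778), and the genotypes overlapped. The differences of the other members with LPS ran from -0.22 for Csf1r (interval -0.69 to 0.24) to 0.14 for Csf3r (interval -0.14 to 0.42), with Csf2ra at -0.002 (interval -0.35 to 0.35). Without LPS the widest interval among the receptors was that of Csf1r, -1.20 to 0.43 around -0.38, and the others were -0.32 for Csf2ra, -0.29 for Csf3r and -0.13 for Csf2rb. The Csf1r difference was -0.07 without unstimulated WT replicate 1, -0.66 without unstimulated D316Y replicate 1 and -0.34 without both, and that of Csf3r was -0.16 without unstimulated WT replicate 1 and -0.16 without both. Maf differed by 0.01 without LPS (interval -0.37 to 0.38) and by -0.21 with LPS (interval -0.53 to 0.11). Cebpa differed by 0.13 without LPS (interval -0.42 to 0.67). Without both unstimulated replicate 1 libraries the differences without LPS were 0.43 for Cebpa, above that of Klf4, 0.26 for Cebpb, 0.15 for Maf, -0.19 for Csf2ra and -0.17 for Csf2rb, and the smallest adjusted p among the 9 members was 0.171, for Csf1r.

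The labels give replicate numbers but state no pairing. Deviations from the group mean correlated at 0.656, 0.631 and 0.200 between same-numbered unstimulated D316Y and WT libraries. The replicate 1 libraries that stood apart can raise these values, so a pairing is not established. Differences within same-numbered pairs are therefore given as a description. Csf1r differed between unstimulated D316Y and WT by -0.48, -0.38 and -0.30 on the log2 scale in pairs 1, 2 and 3. Its levels overlapped between the genotypes, and it was lower in D316Y in 3 of 3 pairs. The share of all genes with the same sign in 3 of 3 pairs was not counted, so this does not set Csf1r apart. Spi1 differed by -0.69, -0.23 and -0.004 and Csf2rb by -0.05, -0.06 and -0.28, and Klf4 by 0.82, 0.59 and 0.14. The other 5 members changed sign between pairs. With the replicate number as a block, limma's adjusted p was 0.130 for Csf1r and between 0.246 and 0.980 for the other members, so these differences did not pass either. The intervals above leave room for differences of the size listed, and a p that misses the threshold does not show that the genotypes are alike.

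**Figure D4:**
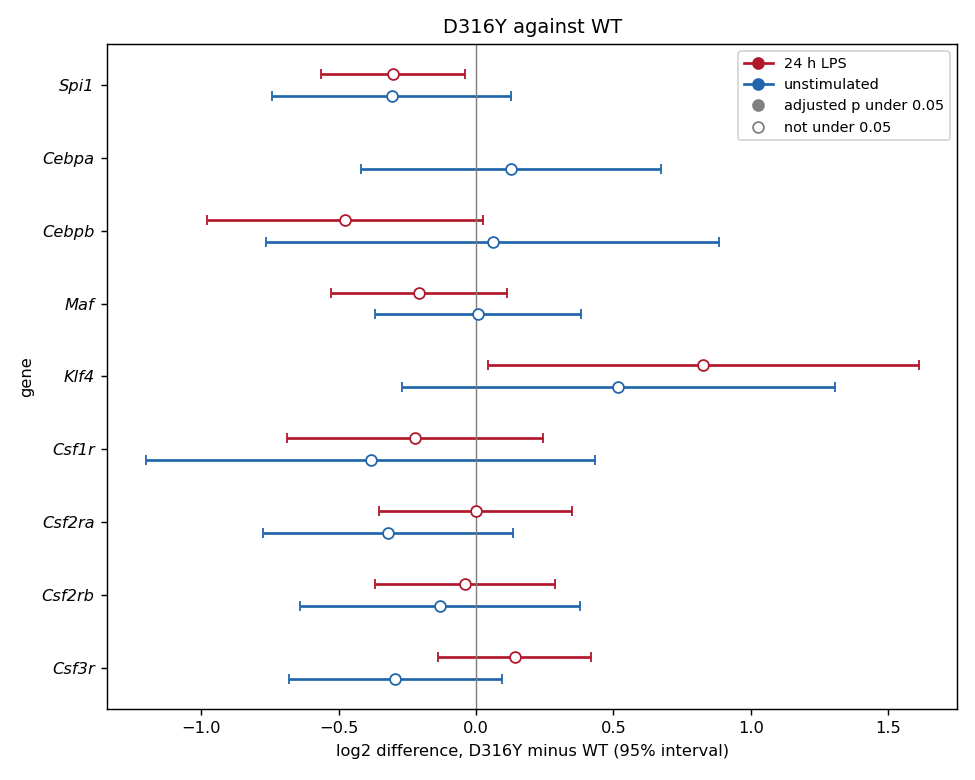
Log2 difference between D316Y and WT (D316Y minus WT) for the 9 genes with 24 h of LPS and without, with 95% intervals; no point passed limma at adjusted p under 0.05, and Cebpa was not tested with LPS. The intervals of Spi1 and Klf4 with LPS lie to either side of 0 without crossing it.

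Whether the LPS response differed between genotypes was tested directly as the interaction, the response in D316Y minus that in WT. It passed for 0 of 9 members (limma), against 0% of 11918 genes. An unadjusted p under 0.05 was reached by 0 members and by 2.11% of all genes. Csf3r had the smallest unadjusted p, with a log2 response that exceeded the WT response by 0.43 in D316Y (SE 0.21, interval -0.01 to 0.88, unadjusted p 0.0556, adjusted p 0.999). Cebpb had a value of -0.54 (SE 0.42, interval -1.44 to 0.37), which became -0.24 without unstimulated D316Y replicate 3. The Csf3r value lay between 0.30 and 0.55 when each library was left out in turn. For Cebpa the interval ran from -1.39 to 1.53, and for Spi1 from -0.45 to 0.46.

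The ligands of these receptors were scarce or did not pass. Csf1 drew 119, 192 and 104 reads in D316Y with LPS, 214, 135 and 196 in WT with LPS, 186, 205 and 233 in unstimulated D316Y and 462, 212 and 180 in unstimulated WT; its log2 difference with LPS was -0.08 in D316Y (SE 0.27, adjusted p 0.842) and -0.31 in WT (SE 0.27, adjusted p 0.402). Csf2, which encodes GM-CSF, had 6, 3 and 2 reads in D316Y with LPS, 0, 15 and 8 in WT with LPS and 0 in all 6 unstimulated libraries. Csf3, which encodes G-CSF, had 9, 0 and 4 reads in D316Y with LPS, 10, 3 and 27 in WT with LPS, 1, 0 and 1 in unstimulated D316Y and 0, 0 and 2 in unstimulated WT. Csf2 and Csf3 stayed below the filter for testing, and at these reads no fold is given. Il34 had at most 6 reads in any library.

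Of the list of ligands and partner receptors, 8 of 11 genes were in the table. In D316Y 1 of 4 tested rose with LPS and 1 fell, and in WT 1 of 5 rose and 2 fell; the median log2 difference of the list was 0.12 in D316Y, against -0.03 over all genes, and -0.31 in WT, against -0.01. The riser was Csf2rb2. Set beside these counts, 38.4% of all genes tested passed in D316Y and 37.1% in WT. Kitl, the ligand of the progenitor receptor Kit, fell, with log2 differences of -3.33 in D316Y (SE 0.38) and -4.03 in WT (SE 0.38). Kit fell by 1.49 in WT (SE 0.46, adjusted p 0.0208) and was not tested in D316Y. The Kit call was lost without unstimulated WT replicate 1 (-1.37), unstimulated WT replicate 3 (-1.42), WT replicate 2 with LPS (-1.36) and WT replicate 3 with LPS (-1.34).

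In the list of signalling genes downstream of these receptors, 7 rose and 4 fell of 25 tested in D316Y, and likewise 7 and 4 in WT, with list medians of 0.16 and 0.10. All genes tested gave 19.4% higher and 19% lower in D316Y, and 18.1% higher and 19% lower in WT. Jak2, the kinase bound to Csf2rb, rose by 2.94 in D316Y (SE 0.18) and by 2.73 in WT (SE 0.18). Socs3, the inhibitor that binds the activated G-CSF receptor, rose by 6.70 in D316Y (SE 0.32) and by 5.79 in WT (SE 0.32). The Src-family kinase gene Fgr rose by 2.06 in D316Y and by 2.52 in WT.

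Of the other myeloid transcription factors, 25 of 29 were tested. In D316Y 4 rose and 8 fell and in WT 5 rose and 10 fell, with list medians of -0.28 and -0.18. For comparison, 38.4% of all genes tested passed in D316Y and 37.1% in WT. Cebpd, a related C/EBP gene, rose by 1.87 in D316Y (SE 0.30) and by 2.52 in WT (SE 0.30). Nfil3, a basic leucine zipper repressor, rose by 1.78 in D316Y and by 1.84 in WT. The early growth response genes fell, Egr2 with -4.92 in D316Y and -4.88 in WT, and Egr1 with -2.22 in D316Y and -1.28 in WT. Nr4a1, an orphan nuclear receptor, fell, with -3.40 in D316Y and -3.50 in WT. Bhlhe41, a repressor found in tissue macrophages, fell, with -1.31 in D316Y and -1.23 in WT.

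Of the macrophage genes of the PU.1 and C/EBP programme, 10 rose and 6 fell of 23 tested in each genotype, with list medians of 0.15 in D316Y and 0.13 in WT. The share called among all genes tested was 38.4% in D316Y and 37.1% in WT. The scavenger receptor gene Msr1 rose by 2.30 in D316Y (SE 0.15) and by 2.30 in WT (SE 0.15), and Aif1 rose by 1.54 in D316Y and by 1.34 in WT. Mrc1, the mannose receptor gene, fell, with -4.10 in D316Y (SE 0.38) and -3.48 in WT (SE 0.38), and so did the lipid receptor gene Trem2, with -2.81 in D316Y and -2.84 in WT. Between the genotypes, 0 genes of these lists passed in either condition, and the interaction likewise gave 0 calls (limma). Of the other transcription factors, 0 of 25 without LPS and 3 of 24 with LPS had an unadjusted p under 0.05. It was 1 of 5 without LPS and 0 of 3 with LPS for the ligands and partner receptors, 1 of 24 and 1 of 25 for the signalling genes, and 1 of 23 and 1 of 23 for the macrophage genes. In the interaction 1 of 25 other transcription factors had such a p, and 0 genes of the remaining lists. Among all genes tested, 2.92% without LPS, 6.5% with LPS and 2.11% in the interaction had such a p.

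Within groups, some pairs of members varied together and others in opposite directions. Of the 36 pairs, 5 had a Pearson's r above 0.5 over the 12 libraries with each group's mean subtracted, 2 were below -0.5, and 29 lay between. The negative pairs were Cebpb with Csf2rb (-0.736) and with Csf1r (-0.632). Over the 12 libraries, with each group's mean subtracted, Pearson's r between Csf1r and Csf2rb was 0.966, and 0.153 without the subtraction. Between Cebpa and Maf it was 0.881 with the subtraction and 0.957 without. Between Cebpa and Cebpb it was 0.04 with the subtraction and -0.88 without. These points share library preparation and the replicate 1 libraries that stood apart, so they are a description.

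**Figure D5:**
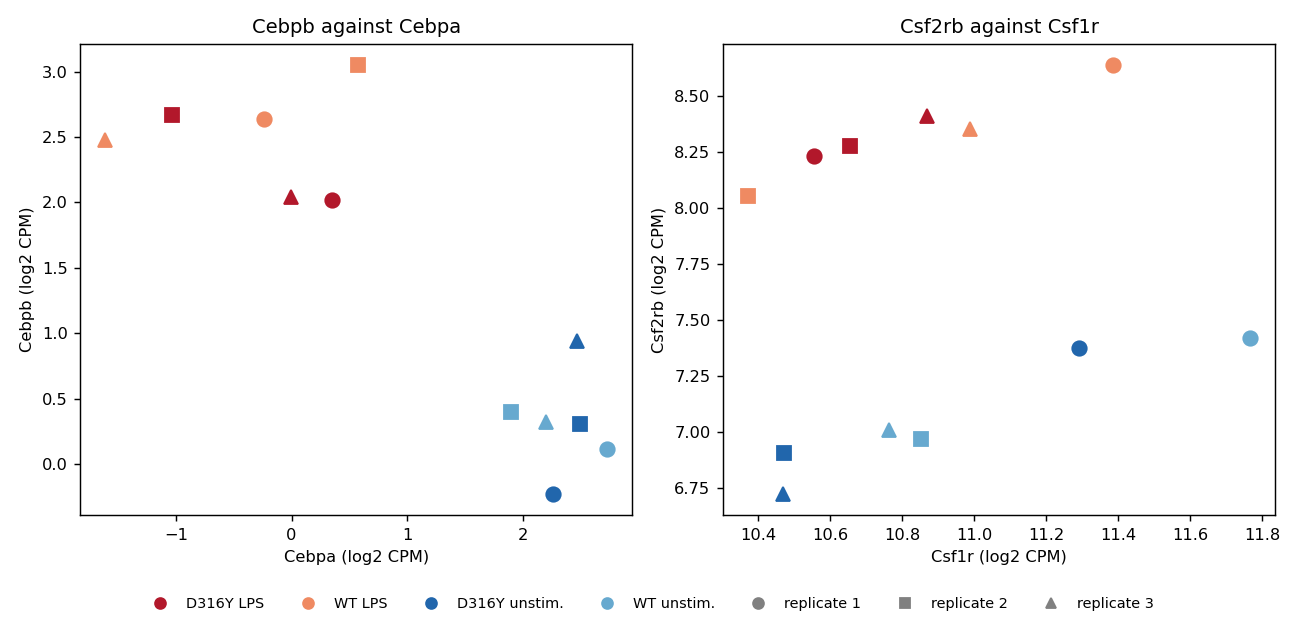
Log2 CPM of Cebpb against Cebpa and of Csf2rb against Csf1r in the 12 libraries, coloured by group and shaped by replicate number. LPS and unstimulated libraries separate into opposite corners for Cebpb and Cebpa, and Csf2rb runs along with Csf1r within each condition, at a higher level with LPS.

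Of all genes with a mean of at least 1 log2 CPM, those whose log2 CPM followed a member most closely over the 12 libraries differed from member to member. They were Gnb2 for Spi1 (Pearson's r 0.989), Bag2 for Cebpa (0.968), Pnrc1 for Cebpb (0.982), Epb41l1 for Maf (0.974) and Ints6l for Klf4 (0.970). For 3 of the receptors they were Ppp1r18 for Csf2ra (0.905), Pgm1 for Csf2rb (0.996) and Nod1 for Csf3r (0.996). With group means subtracted, r was 0.972 for Spi1 and Gnb2, 0.972 for Csf2rb and Pgm1 and 0.947 for Csf3r and Nod1. Cybb, which encodes the catalytic subunit of the phagocyte oxidase, was the third closest to Csf2rb (0.993 over the 12 libraries and 0.983 within groups). These values mix the shared LPS response with the spread between libraries.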

How the data were processed

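RNA of 12 libraries was measured by sequencing. Per the submitters' processing notes the tools were limma, edgeR, featureCounts 1.4.6-p5, Subread, STAR 2.5.1a and bcl2fastq. Not given in the sources used here are the genome build, the annotation and the rule by which genes were kept. The authors deposited log2 CPM values of the 12 libraries in 2 tables, and both tables held the same values; the deposited log2 fold changes with their p-value and adjusted p-value come from the authors' own fit, per the file headers. Repeated rows (52) were taken once, leaving 12441 genes, all matched to GENCODE M21 (GRCm38) for positions and exon lengths. All values under 200 reads lay within 0.01 of a whole read in the form log2 of reads plus a small offset over an effective library size, and the reads were recovered from it.

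The values were tested with limma 3.58.1 in R 4.3.3 (data.table, version 1.17.8): lmFit and eBayes with trend and robust, two-sided, Benjamini-Hochberg adjustment over all genes tested, threshold 0.05. A gene was tested if the mean of a compared group reached 0 log2 CPM. Genotypes were compared within the 6 libraries of a condition, and the LPS comparisons and the interaction came from a fit of all 12. The method was run on simulated counts with the same dispersion for every gene and no library that stood apart. That run therefore does not measure its performance on these libraries. Log2 values per kilobase used the exon length of the annotation. From each gene list up to 4 genes that passed with the smallest adjusted p were to be named, or up to 2 where none passed, of which a selection is printed; likeness took the 3 genes with the highest Pearson correlation. Egr1, Cd209a and others given for comparison were chosen after their values were seen. The 9 members, the lists and the tests were chosen with earlier results of these data known. Alternatives were other filters, scalings and variance settings, a block on the replicate number, other sets of libraries, and Csf2rb and Csf2rb2 summed; scaling to the reads in the table was added after the data were seen. Deviations from the group mean correlated at 0.656, 0.631 and 0.200 across genes between same-numbered unstimulated D316Y and WT libraries. Between WT with LPS and unstimulated WT they correlated at 0.422, 0.231 and -0.092 for replicates 1, 2 and 3. In the other comparisons all correlations were under 0.1. The labels state no pairing, and the replicate 1 libraries that stood apart can raise such correlations, so a pairing is not established. A few genes that these rules name are not reported here. Counting error is larger at low reads, and since PCR copies were not told apart by molecular identifiers, reads are not independent molecules.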

Additional observations from a re-analysis of the deposited data

How the results depend on the processing

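The number of members called stayed at 0 in both genotype comparisons and the interaction, and between 5 and 7 in the LPS comparisons of both genotypes, under every alternative run; the lowest count came from the stricter filter, which leaves Klf4 untested. Of 717 member values under alternatives, 664 kept direction and side of the threshold, 5 newly passed (given with Spi1 and Csf2ra, besides Spi1 in D316Y with median centring, 0.42, adjusted p 0.0477, and in WT without both unstimulated replicate 1 libraries, 0.45, adjusted p 0.0119) and 48 changed sign, none of them called; the cause was not tested. With the replicate number as a block, 0 members passed in either genotype comparison and 6 in each LPS comparison, while all genes called without LPS became 6 instead of 1. Over all alternatives, all genes called numbered 0 to 10 without LPS and 1 to 22 with LPS between genotypes.

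Signs that changed, without LPS between genotypes: Cebpb -0.0560 with quantile normalization and Maf -0.00425 with median centring. With LPS: Csf2ra 0.0328 and Csf2rb 0.00134 with quantile normalization, and Csf2ra 0.0386 and Csf2rb 0.000531 with scaling to the reads in the table. For LPS in D316Y: Csf2ra -0.19 with quantile normalization and -0.38 with that scaling, Spi1 -0.14 with it, Csf1r 0.000722 with median centring and 0.22 without both unstimulated replicate 1 libraries. For LPS in WT: Csf1r 0.11 without those libraries and Spi1 -0.14 with scaling to the reads in the table. In the interaction: Spi1 -0.00382 with quantile normalization, -0.18 without those libraries and -0.000884 with that scaling, and Cebpa -0.23 without those libraries.

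Leaving out each library in turn gave, without LPS between genotypes, -0.0616 to 0.353 for Cebpa, -0.24 to 0.34 for Cebpb, -0.0650 to 0.0955 for Maf and -0.317 to 0.0141 for Csf2rb. With LPS it gave -0.495 to 0.0115 for Csf1r, -0.13 to 0.18 for Csf2ra, -0.19 to 0.10 for Csf2rb and -0.23 to 0.10 for Il3ra. For LPS, Csf1r ran from -0.19 to 0.22 in D316Y and from -0.45 to 0.11 in WT. In the interaction it gave -0.10 to 0.14 for Spi1, -0.52 to 0.57 for Cebpa, -0.16 to 0.43 for Csf1r and -0.0556 to 0.277 for Csf2rb. Cebpa, Cebpb and Klf4 had the fewest reads of the members.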
